A study of Mus musculus with 4 samples.

Results

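Homologous recombination repairs a broken chromosome by copying the intact sister, and the Fanconi anemia pathway unhooks crosslinks that tie the strands of DNA together and hands the resulting breaks to recombination. The damage is sensed by the ATM and ATR kinases, ends are trimmed by the MRE11-RAD50-NBS1 complex, and BRCA1, PALB2 and BRCA2 prepare the exposed strand for pairing with the sister. Embryonic stem cells divide fast with a short gap phase before replication and are known to lean on recombination. The 31 genes described here are listed members of these pathways, taken by symbol, and all 31 were found among the 37311 gene identifiers of the count tables.

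The cells were J1, an embryonic stem cell line from mice of strain 129S4/SvJae, kept feeder-free in serum and leukaemia inhibitory factor. All 4 libraries came from cells infected with short hairpins (sheIF4a3-2 and sheIF4a3-3) against eIF4A3, the RNA helicase at the heart of the exon junction complex, with puromycin at 1 μg/mL for 3 days and harvest on day 4.5. Translation was halted before lysis with cycloheximide (0.1 mg/mL, 1 min), and ribosome protected fragments (RPF, the stretches of mRNA shielded by ribosomes) and total RNA were each sequenced from 2 biological replicates. The labels do not tie a hairpin to a replicate, and control cells were not analysed here, so no value below measures an effect of the knockdown. The comparison made is that of RPF with total RNA, which asks how many footprints a gene had for its amount of RNA, relative to other genes.

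Gene counts came to 7615277 to 9434987 in the RPF libraries and 8218020 to 8969965 in the total RNA libraries. The 31 genes held 0.140% to 0.144% of them in RPF and 0.201% to 0.205% in total RNA, with 49 to 1772 counts per gene and library, and all 31 passed the count filter that kept 13809 genes. Eif4a3 itself stood at 120.3 and 101 CPM in total RNA (a gene's count relative to its library's total, scaled by trimmed mean of M-values, TMM, factors). The stem cell markers Pou5f1, Sox2, Nanog, Zfp42, Esrrb and Dppa5a summed to 3442 to 3585 CPM in total RNA, against 19.8 to 26.7 CPM for 5 primitive endoderm, 6.17 to 7.53 CPM for 5 trophectoderm and 5.16 to 5.58 CPM for 6 fibroblast markers. Postn and Elf5 were at 0 in both total RNA libraries. Reads that fell on more than 1 gene made up 4.96% and 8.58% of the RPF tallies and 0.755% and 0.719% of the total RNA tallies.

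The sequence around the start codon is shown for the 7 genes with a called ratio and for Fance, whose longest coding transcript is annotated with a start codon other than ATG. Each run holds 9 bases before the start codon, the codon in capitals and 1 base after it, taken from the GENCODE M21 transcript (GRCm38) with the longest coding sequence.
Xrcc2: ggccgggcgATGt
Fancm: ctgggcaccATGa
Atr: ggtgtcaccATGg
Atm: tcttaaaccATGa
Bard1: tctgtgggaATGc
Chek1: cttggagtcATGg
Rad50: ggtgcaaacATGt
Fance: cgctctgcgCTGg
All 7 called genes have a purine 3 bases before the codon, and among them Atr and Chek1 also have a G directly after it. Over the 31 genes, 28 (90.3%) have the purine and 11 (35.5%) have both features at an ATG, against 86.1% and 45.3% of 12233 tested coding genes with such a context. The 5 genes with a lower ratio include 1 with both features, and the 2 with a higher ratio include 1.

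The ratio of RPF to total RNA passed as higher for Rad50 and Chek1 and as lower for Xrcc2, Fancm, Atr, Atm and Bard1, and the other 24 genes did not pass. Of the 31 genes, 6.45% were thus higher and 16.1% lower, while of all 13809 genes tested 20.5% were higher and 21.2% lower (edgeR's quasi-likelihood test, Benjamini-Hochberg adjusted p under 0.05). The log2 ratios ran from -1.36 to 0.78 with a median of -0.05, against a median of -0.02 over all genes tested. Their quartiles lay at -0.46 and 0.21, against -0.67 and 0.56 over all genes. A change of at least 2-fold was reached by 2 of the 31 genes (6.45%), both lower, and by 10.8% of all genes upward and 16.5% downward. The median standard error (SE) of the 31 ratios was 0.18, and that of 7718 other coding genes within the same range of total RNA level was also 0.18; of those, 23.8% were higher and 23.8% lower. The 2 RPF libraries lay above both total RNA libraries for 8 of the 31 genes and below both for 13, with 10 overlapping; over all genes tested 34.9% lay above and 37.9% below. Scaling sets the zero of the ratio. Scaled by library size alone, the 31 genes had a median of -0.47 and all genes one of -0.46; 0 of the 31 were then higher and 13 lower by edgeR (1 and 14 at an unadjusted p under 0.05; DESeq2 with its own scaling called 2 and 4, against 18.8% and 16.8% of all genes), against 8.86% and 35.9% of all genes.

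**Figure D1:**
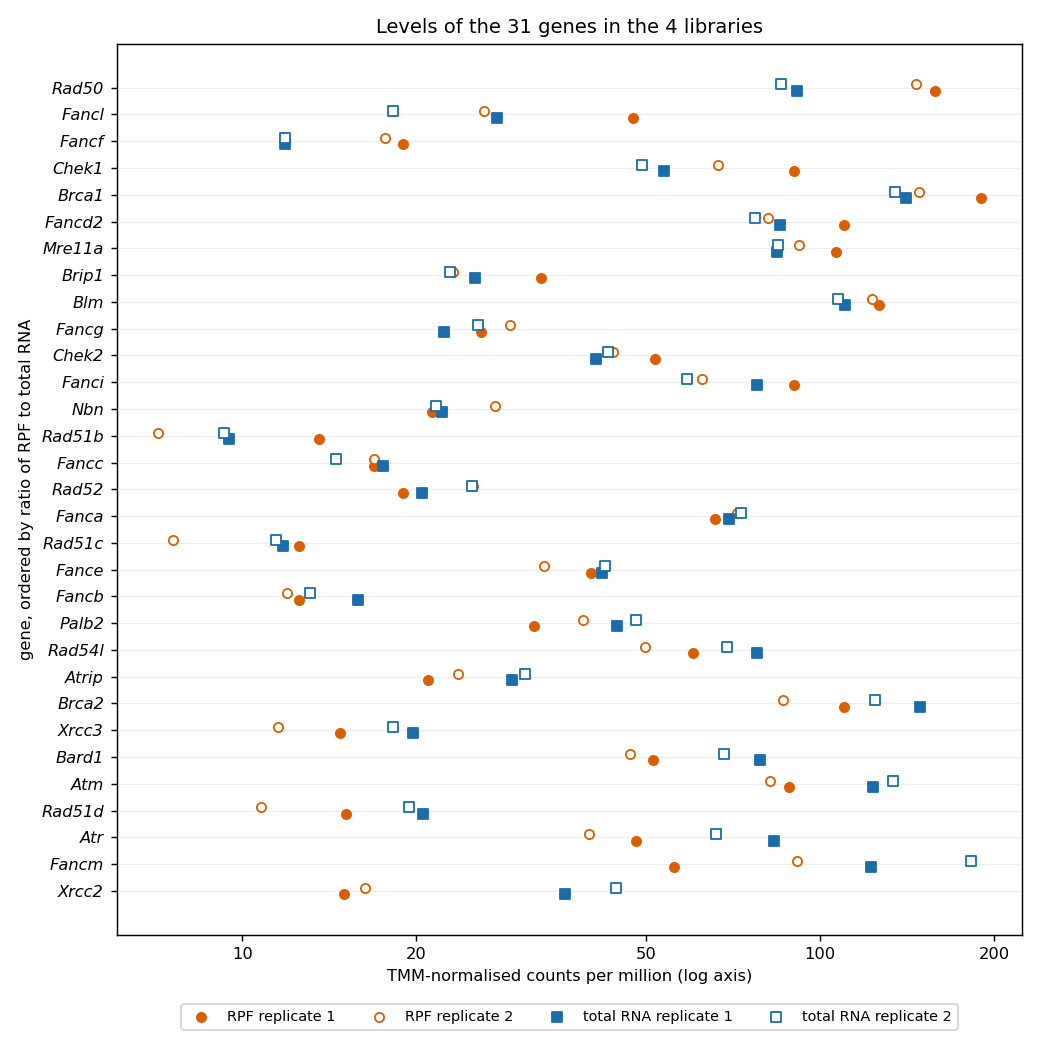
Level of each of the 31 genes in the 4 libraries, as TMM-scaled CPM on a log axis, with genes ordered by their ratio from Rad50 at the top to Xrcc2 at the bottom; circles are RPF, squares total RNA, filled replicate 1 and open replicate 2. The circles lie right of the squares for 8 genes and left of them for 13, and in Fancm and Fancl the replicates of a fraction lie far apart.

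Among the sensors and kinases, the apical kinases had fewer footprints per RNA and the effector Chek1 had more. Atr, the kinase called up by single-stranded DNA at stalled forks, stood at 48.0 and 39.8 CPM in the RPF libraries and at 83.3 and 66.1 CPM in the total RNA libraries. The RPF values lie below both total RNA values, and the ratio passed as lower (log2 ratio -0.77 ± 0.17 SE, adjusted p = 0.0124, edgeR). Atr has exons of 23629 bases in the annotation, of which 33.5% are coding, and after a correction for exon length the ratio was -0.38 and did not pass (adjusted p = 0.125). It also did not pass in edgeR's test against a fold of 1.5 (adjusted p = 0.186). Without total RNA replicate 1 the ratio was -0.59. Atm, the kinase that answers double-strand breaks, had 88.3 and 81.9 CPM in RPF and 124 and 134 CPM in total RNA. Its groups do not overlap, and its ratio was lower (-0.60 ± 0.14 SE, adjusted p = 0.0122, edgeR). It missed the threshold in edgeR's test against a fold of 1.5 (adjusted p = 0.485). Without total RNA replicate 2 the ratio was -0.54.

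Chek1, the kinase that ATR activates to hold the cell cycle, had 90.2 and 66.6 CPM in RPF and 53.8 and 49.1 CPM in total RNA. Both RPF libraries lie above both total RNA libraries, with RPF replicate 1 well above replicate 2. The ratio passed as higher (0.61 ± 0.18 SE, adjusted p = 0.0300, edgeR). Leaving out RPF replicate 1 gave 0.39, and leaving out total RNA replicate 1 or 2 gave 0.67 and 0.54. The call ended under scaling by library size alone (0.17, adjusted p = 0.434, edgeR). It also ended in edgeR's test against a fold of 1.5 (adjusted p = 0.466). Chek2, the effector that ATM activates, had a ratio of 0.19 ± 0.15 SE and did not pass, although its RPF values of 51.8 and 43.9 CPM lie above its total RNA values of 41.0 and 42.9 CPM. Atrip, the partner that carries ATR to coated DNA, had 20.9 and 23.6 CPM in RPF and 29.3 and 30.9 CPM in total RNA and did not pass (-0.43 ± 0.17 SE, adjusted p = 0.0849). In the annotation 16.0% of its exon bases lie in exons of Trex1 on the same strand, and reads there can be counted for either gene or for none.

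In the complex that binds and trims broken ends, Rad50 was the only one of 3 genes with a called ratio. Rad50, the ATPase that tethers the ends, had 158 and 146 CPM in RPF and 91.2 and 85.7 CPM in total RNA. The fractions are well apart, with replicates close together, and the ratio was the highest of the 31 (0.78 ± 0.14 SE, adjusted p = 0.00458, edgeR). It corresponds to 1.72-fold more footprints per RNA than the scaling's zero. The call ended under scaling by library size alone (0.35, adjusted p = 0.0749) and in a test against a fold of 1.5 (adjusted p = 0.111). The nuclease Mre11a had 107 and 91.9 CPM in RPF and 84.1 and 84.6 CPM in total RNA (0.24 ± 0.14 SE, adjusted p = 0.212), and Nbn, which links the complex to ATM, had 21.3 and 27.4 against 22.1 and 21.7 CPM (0.15 ± 0.20 SE, adjusted p = 0.571). Neither passed, and for Nbn the fractions overlap.

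The BRCA group, which acts on the trimmed ends, held 1 called gene of 6. Bard1, the obligate partner of BRCA1 in a ubiquitin ligase, had 51.5 and 46.9 CPM in RPF and 78.6 and 68.1 CPM in total RNA. All RPF values lie below the total RNA values and the ratio passed as lower (-0.58 ± 0.15 SE, adjusted p = 0.0182, edgeR). DESeq2 placed it just outside the threshold (-0.55, adjusted p = 0.0527), as did edgeR's test against a fold of 1.5 by a wider margin (adjusted p = 0.542). Without total RNA replicate 1 the ratio was -0.47. Brca1 itself had 190.2 and 148 CPM in RPF and 141 and 135 CPM in total RNA. Its fractions do not overlap, but the ratio of 0.29 ± 0.16 SE did not pass (adjusted p = 0.186). Scaled by library size alone, that ratio turned to -0.14, and without RPF replicate 2 it was 0.48.

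Brca2, the tumour suppressor at the centre of this repair, had 110.0 and 86.2 CPM in RPF and 149 and 125 CPM in total RNA (-0.48 ± 0.17 SE, adjusted p = 0.0623). Palb2, the bridge between BRCA1 and BRCA2, had 31.9 and 38.9 against 44.5 and 48.0 CPM (-0.39 ± 0.16 SE, adjusted p = 0.0999). Rad54l, a motor that helps strand invasion, had 60.4 and 49.7 against 77.9 and 69.1 CPM (-0.42 ± 0.16 SE, adjusted p = 0.0674). In these 3 genes both RPF libraries lie below both total RNA libraries, yet none passed the reported test. After correction for coding share Brca2 (-0.72, adjusted p = 0.0151, edgeR) and Palb2 (-0.53, adjusted p = 0.0367) passed as lower. With a filter at a mean of 10 CPM, Brca2 (adjusted p = 0.0345, edgeR) and Rad54l (adjusted p = 0.0344) did. After correction for exon length Brca2, Palb2 and Rad54l had ratios of -0.26, -0.28 and -0.30, and none passed. Without RPF replicate 1 the ratios of Brca2 and Rad54l were -0.66 and -0.55, and without RPF replicate 2 that of Palb2 was -0.52. Rad52, an annealing protein, had 19.0 and 25.1 CPM in RPF and 20.5 and 25.0 CPM in total RNA, and its ratio of -0.05 ± 0.22 SE did not pass (adjusted p = 0.885).

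**Figure D2:**
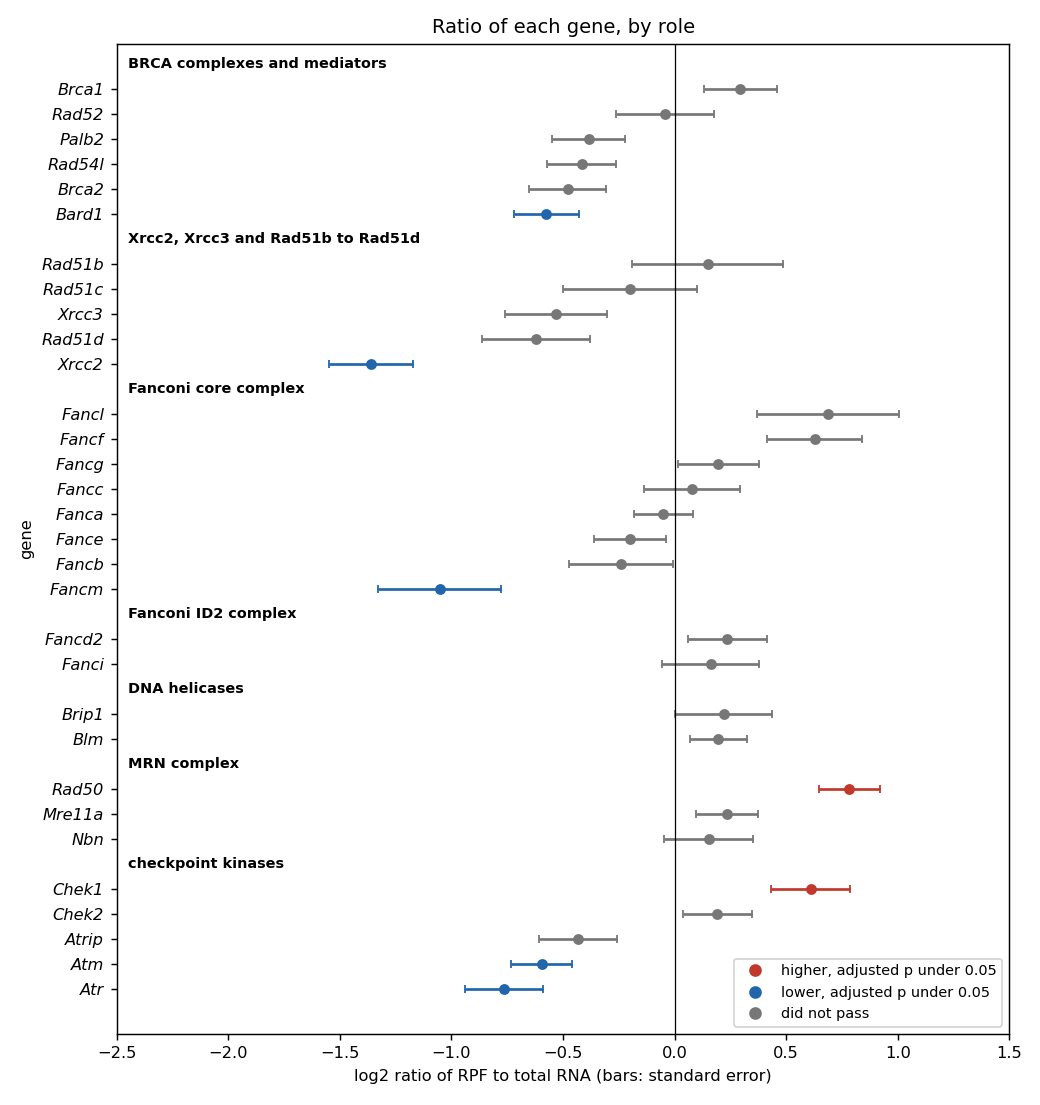
Log2 ratio of RPF to total RNA of each gene, grouped by role, with bars of 1 standard error; red marks a ratio called higher, blue lower, and grey one that did not pass. Rad50 and Chek1 are the red points, and Xrcc2, at -1.36, is the lowest of the 5 blue ones.

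The group of Xrcc2, Xrcc3, Rad51b, Rad51c and Rad51d, whose products work in recombination as small complexes, held the lowest ratio of all. Xrcc2 had 15.0 and 16.3 CPM in RPF and 36.1 and 44.3 CPM in total RNA. The total RNA values are more than double the RPF values, and the ratio of -1.36 ± 0.19 SE passed (adjusted p = 0.00215, edgeR), 2.57-fold lower than the scaling's zero. Xrcc2 was lower in all 16 settings that were run, between -1.79 and -1.06. It was called so in every setting that kept all 4 libraries. It also has the smallest coding share of the 31 genes, 16.0% of 5216 exon bases, and after correction for coding share its ratio was -1.06. Rad51d had 15.1 and 10.8 against 20.6 and 19.4 CPM (-0.62 ± 0.24 SE, adjusted p = 0.0758), and Xrcc3 had 14.7 and 11.5 against 19.8 and 18.3 CPM (-0.53 ± 0.23 SE, adjusted p = 0.100). Both lie below total RNA in every library without passing, and without RPF replicate 1 their ratios were -0.88 and -0.71. After correction for exon length both passed as lower (-0.73 and -0.84, adjusted p = 0.0486 and 0.0254, edgeR). After that for coding share neither did (-0.49 and -0.58). Rad51b (13.6 and 7.14 against 9.50 and 9.29 CPM) and Rad51c (12.5 and 7.58 against 11.7 and 11.5 CPM) had the fewest RPF counts of the 31, down to 49 and 52, with fractions that overlap, and had ratios of 0.15 ± 0.34 SE and -0.20 ± 0.30 SE that did not pass.

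The Fanconi core complex, the ubiquitin ligase assembled at a crosslink, had ratios from -1.05 to 0.69. Fancm, the translocase that anchors the complex to DNA, had 56.0 and 91.4 CPM in RPF and 123 and 183 CPM in total RNA. Replicate 2 was the higher one in both fractions, by 1.63-fold and 1.49-fold, and the fractions do not overlap. The ratio passed as lower (-1.05 ± 0.28 SE, adjusted p = 0.0209, edgeR). Its value ran from -1.47 to -0.73 over the 16 settings. Of those that kept all 4 libraries, only the test against a fold of 1.5 missed the call (adjusted p = 0.0994). Without RPF replicate 1 it stood at -0.73, without total RNA replicate 2 at -0.74, and without RPF replicate 2 at -1.43.

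Fancl, the catalytic ligase subunit, had 47.5 and 26.2 CPM in RPF and 27.6 and 18.3 CPM in total RNA. Replicate 1 was the higher one in both fractions. The fractions overlap, although RPF lies above total RNA within each replicate number, and the ratio of 0.69 ± 0.32 SE did not pass (adjusted p = 0.124). The ratio was 1.06 without RPF replicate 2 and 1.01 without total RNA replicate 1, but 0.20 without RPF replicate 1 and 0.42 without total RNA replicate 2. Fancf, an adaptor subunit, had 19.0 and 17.6 against 11.8 and 11.9 CPM, with RPF above total RNA in every library, and fell just short of the threshold (0.63 ± 0.21 SE, adjusted p = 0.0505). Its value passed with DESeq2 size factors (adjusted p = 0.0437) and with limma-voom (adjusted p = 0.0423). Without RPF replicate 2 it was 0.70. The exon length correction took Fancf down to 0.08. The 5 remaining core subunits, Fanca, Fancb, Fancc, Fance and Fancg, had ratios between -0.24 and 0.19, none of which passed. Fanca, the largest of these proteins, showed 65.8 and 71.9 CPM in RPF and 69.6 and 73.0 CPM in total RNA, with overlapping fractions.

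The target of the core complex is the pair of Fancd2 and Fanci, which is ubiquitinated as a clamp on DNA. Fancd2 had 110.0 and 81.4 CPM in RPF and 85.3 and 77.3 CPM in total RNA (0.24 ± 0.18 SE, adjusted p = 0.314), and Fanci had 90.1 and 62.5 against 77.8 and 58.8 CPM (0.16 ± 0.22 SE, adjusted p = 0.584). Without RPF replicate 2 the ratio of Fancd2 was 0.45. In both genes the fractions overlap and replicate 1 was the higher one throughout. The helicases Brip1, a BRCA1 partner, and Blm, which dissolves joined chromosomes, had ratios of 0.22 ± 0.22 SE and 0.20 ± 0.13 SE. Blm was even across libraries, with 126 and 123 CPM in RPF and 110.3 and 108 CPM in total RNA, and its ratio did not pass (adjusted p = 0.261).

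Levels of different genes can be set side by side only per length. In total RNA, per kilobase of exon, Rad50 (16.5 ± 0.735 CPM per kb, SD, n = 2) and Brca1 (16.2 ± 0.488) were highest and lie within each other's spread, followed by Fancm (14.6 ± 4.08), Mre11a (14.2 ± 0.0629) and Chek2 (14.0 ± 0.450), which also overlap. Fancc (1.92 ± 0.252), Rad51b (2.50 ± 0.0392) and Rad51c (2.65 ± 0.0473) were lowest. This order rests on counting all annotated exons. Per kilobase of the transcript with the longest coding sequence, the mean total RNA level was highest for Mre11a (25.7 CPM per kb), Rad54l (24.3) and Blm (22.8), with Rad50 at 17.2, and lowest for Brip1 (3.48), Rad51b (4.29) and Fancb (4.86). The counts are still those of all exons, so reads outside that transcript raise this value. All exons span 1.80, 2.55 and 1.84 times that transcript in Mre11a, Rad54l and Blm, and 1.04 times in Rad50. Atr moved from 3.16 ± 0.517 to 9.22 CPM per kb. In RPF, per kilobase of coding sequence, Chek1 was highest (54.9 ± 11.7), ahead of Mre11a (46.9 ± 4.99), which lies within its spread, and Rad50 (38.7 ± 2.09). Fancb (4.74 ± 0.160) and Atr (5.54 ± 0.729) were lowest.

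Features of the mRNAs were set beside the ratio as a description. Coding share and overlapping exons can bear on which reads are counted, so they cannot be taken as independent of it. Upstream ATGs, which can catch a scanning ribosome before the main start, occur in 18 of the 31 genes (58.1%) and in 49.4% of 12639 tested coding genes. The median log2 ratio was -0.22 in the 18 genes with an upstream ATG and 0.08 in the 13 without; over all tested coding genes these medians were -0.18 and 0.19. Chek1, with 8 upstream ATGs, and Fancl, with 18, are among the 4 highest ratios of the 31. Counts are per gene, so footprints on upstream frames cannot be told apart from those on the main frame. The 31 genes have a median coding share of 47.2% of their exons and a median coding length of 2253 bases, against 35.8% and 1437 bases over all tested coding genes. Across the 31 genes Pearson's r of the ratio with coding share was 0.19 (Spearman's rho 0.22) and with log2 exon length -0.36 (rho -0.23), and across 12655 coding genes it was 0.18 and -0.25; genes are not independent replicates, and all points share the same 4 libraries. Sequence that another gene also carries, counted in 28-base windows, makes up a median of 0.562% of these genes' transcripts and at most 17.2%, in Atrip. In 12 of the 31 genes some exon bases lie in exons of another gene. On the opposite strand this covers 18.6% in Fancc, 16.0% in Fanci, 15.4% in Rad54l, 15.0% in Fancf, 13.7% in Fancl and 10.5% in Fanca; whether counting used strand is not given in the sources used here, and its part in these ratios was not tested.

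The wider pathway was read from a list of 58 further recombination and crosslink repair genes, all tested. Of these, 14 were higher (24.1%) and 12 lower (20.7%), close to the 20.5% and 21.2% of all genes tested, with a median log2 ratio of 0.07. The highest were Babam2, a subunit of the BRCA1-A complex (1.53 ± 0.21 SE), H2afx, the histone variant marked at breaks (1.32 ± 0.17 SE), and Cenps, which binds FANCM (1.28 ± 0.19 SE; adjusted p of 0.00199, 0.00168 and 0.00252, edgeR). The lowest were Eme2, a nuclease subunit with 0.259 and 0.583 CPM in RPF and 4.21 and 5.99 CPM in total RNA (-3.58 ± 0.55 SE), Topbp1, the activator of ATR (-1.19 ± 0.16 SE), and Hus1, of the checkpoint clamp (-1.15 ± 0.15 SE; adjusted p of 0.00185 and 0.00186 for Topbp1 and Hus1, edgeR). Eme2 had only 2 and 4 counts in RPF, against 43 and 58 in total RNA. It passed the count filter through total RNA alone, which favours a lower ratio, so its call is not read as a result.

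End joining seals breaks without a template, and 4 of its 17 tested genes were higher (23.5%) and 6 lower (35.3%), beside 20.5% and 21.2% of all genes, with a median of -0.03. Xrcc4 (1.03 ± 0.22 SE), Xrcc6 (0.87 ± 0.18 SE) and Xrcc5 (0.87 ± 0.17 SE), the ligase partner and the Ku dimer, were highest, and Polq (-1.54 ± 0.31 SE), Shld2 (-1.42 ± 0.19 SE) and Dclre1c (-0.85 ± 0.26 SE) lowest. The Dclre1c call (adjusted p = 0.0354, edgeR) was lost with DESeq2 (adjusted p = 0.0649), under both loess corrections (0.0657 for coding share and 0.0675 for exon length) and in the test against a fold of 1.5 (0.202). Scaling by library size alone ended the calls of Xrcc4, Xrcc6 and Xrcc5 (adjusted p = 0.0751, 0.0709 and 0.0512, edgeR). The test against a fold of 1.5 did so too (adjusted p = 0.0596, 0.0992 and 0.0849, edgeR). Without total RNA replicate 2 the ratios of Dclre1c and Xrcc5 were -0.63 and 0.74. Replication licensing and fork genes, which open and copy the DNA that recombination protects, were higher in 24 of 47 (51.1%) and lower in 3, with a median of 0.60. Lig1 (1.35 ± 0.25 SE), Pcna (1.27 ± 0.24 SE) and Mcm3 (1.22 ± 0.21 SE) led them, and Gins3 (-0.76 ± 0.20 SE), Dbf4 (-0.72 ± 0.14 SE) and Orc2 (-0.58 ± 0.14 SE) stood lowest. The calls of Gins3 and Orc2 (adjusted p = 0.0201 and 0.0165, edgeR) rest on both total RNA libraries, and fits where that fraction kept 1 library are not read for calls. The upper quartile of the 31 recombination and Fanconi genes, 0.21, lies below the median of the replication genes; the difference between the lists was not tested.

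**Figure D3:**
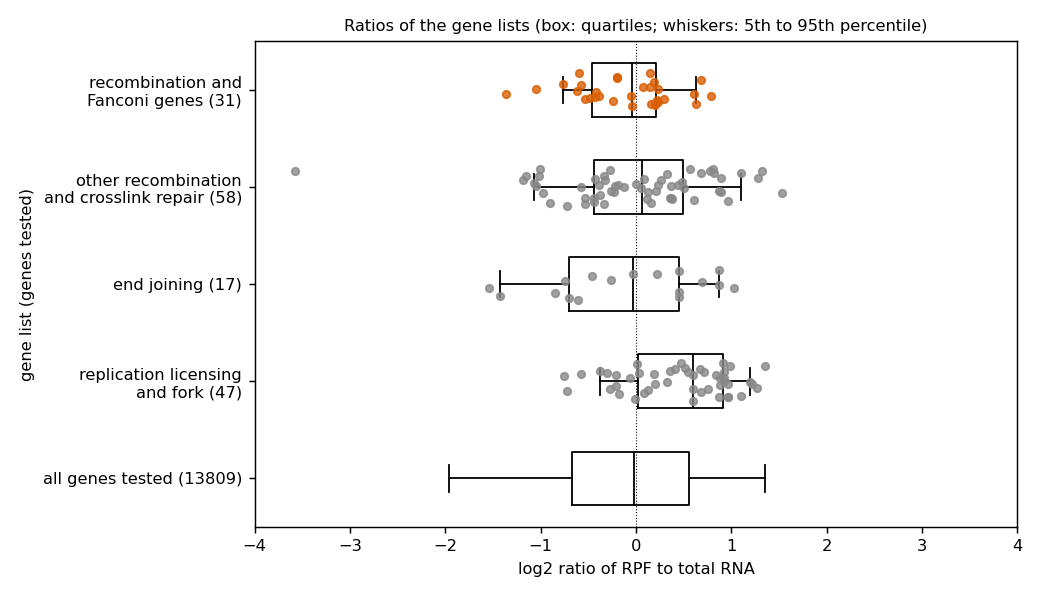
Log2 ratios of the 31 recombination and Fanconi genes, 3 lists set beside them and all 13809 genes tested; dots are genes, boxes quartiles with the median, whiskers the 5th to 95th percentile. The 31 genes centre near 0 at -0.05, and the replication genes centre at 0.60.

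Replicates moved together across fractions in many of these genes. In 25 of the 31 genes (80.6%) the order of replicates 1 and 2 was the same in RPF as in total RNA, against 69.2% of 13547 genes with a count in all 4 libraries. Pearson's r of the log2 replicate difference in RPF with that in total RNA was 0.68 across the 31 genes and 0.39 across all genes, as a description. The level was lower in replicate 2 in both fractions for 18 genes (58.1%, against 33.7% of all genes), Fancl (0.553 and 0.662 of replicate 1 in RPF and total RNA) and Fanci (0.694 and 0.756) among them. It was higher in both for 7 genes, with Fancm, Rad52 (1.32 and 1.22) and Xrcc2 (1.09 and 1.23) among them. Rad51b and Rad51c were at 0.526 and 0.604 in RPF but at 0.978 and 0.975 in total RNA. Since 2 hairpins were used and the labels do not assign them to replicates, a difference between hairpins and one between cultures cannot be told apart.

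**Figure D4:**
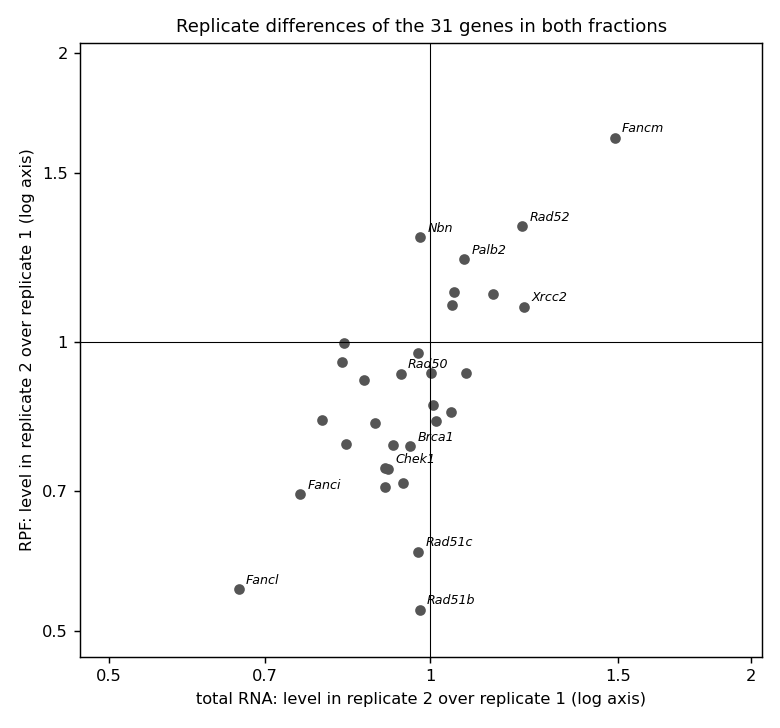
Level in replicate 2 over replicate 1 for each of the 31 genes, total RNA on the horizontal and RPF on the vertical axis, both on log scales. Most genes lie in the lower left quadrant, where replicate 2 is lower in both fractions. The upper right quadrant holds 7 genes, with Fancm farthest out, at 1.49 and 1.63.

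**Figure D5:**
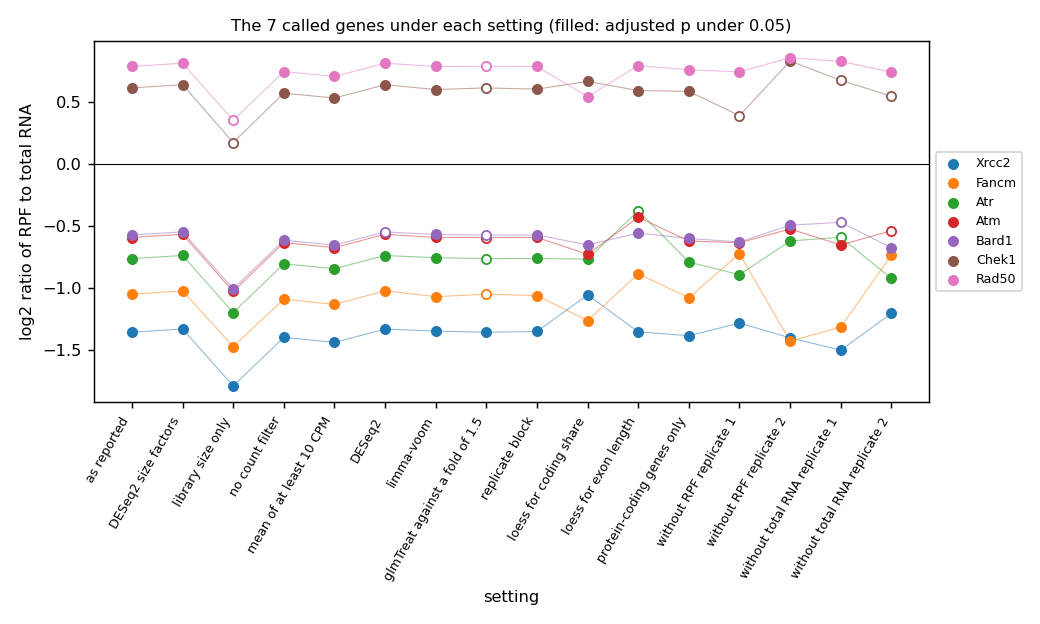
Log2 ratio of the 7 called genes under the reported setting and 15 alternatives; filled points have an adjusted p under 0.05 and open ones do not. Xrcc2 is filled throughout, and no gene crosses 0.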

How the data were processed

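The authors deposited raw read counts per gene for each library, without normalisation; per the submitters' processing notes, which name build mm9, the tools were HTSeq 0.11.2, edgeR 3.26.8, TopHat2 2.1.1 and Bowtie 1.2.3. Per the labels' protocols, libraries came from the TruSeq Ribo Profile kit with Ribo-Zero depletion, with single 50 bp reads, and each RPF library was sequenced in 4 runs. Not given in the sources used here are the gene models, the feature counted and the use of strand. Closing tallies (no feature, ambiguous, not unique) were left out of library sizes; reads with no feature were 5.95% and 6.66% of RPF and 23.4% and 26.2% of total RNA tallies. Ribosomes protect mainly coding sequence, so a ratio can also depend on the coding share of a gene's exons. Where the RPF reads lay within genes was not tested.

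Symbols came from GENCODE M21 by identifier without version (32621 of 37311 identifiers, 87.4%). Coordinates are not printed, because counts were made on another build. edgeR 4.0.16 in R 4.3.3 fitted fraction over the 2 RPF and 2 total RNA libraries, on 13809 genes passing filterByExpr (minimum count 10, minimum total 15), with TMM factors. The quasi-likelihood test was two-sided, p-values were adjusted over all genes tested with a threshold of 0.05, and SE is the log2 ratio over the square root of F. A count of 0 allows up to 3 counts, 0.318 to 0.394 CPM, a limit for counting error alone, because PCR copies were not marked by molecular identifiers. Replicates are stated as biological, without further detail.

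The alternatives for scaling were size factors from DESeq2 and library size alone; for the filter, none or a 10 CPM mean; for the test, DESeq2 1.42.0, limma-voom (limma 3.58.1) and glmTreat against a 1.5 fold. Others were the replicate block, loess corrections (span 0.5) for coding share or exon length over coding genes, coding genes only, and leaving out each library. A fraction that lost a library kept 1, so such a fit took its spread from the other fraction alone. Its ratios are therefore given without p-values or counts of calls. The members and lists were chosen with earlier results of these data known. All 31 members are named, and of each other list the 3 highest and 3 lowest ratios.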

Additional observations from a re-analysis of the deposited data

How the results depend on the processing

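Pairs of counts below are genes called higher, then lower, by edgeR unless another tool is named. For the 31 genes, reported as 2 and 5, scaling by library size alone gave 0 and 13 (1 and 14 at an unadjusted p under 0.05), glmTreat gave 0 and 1 (1 and 2 unadjusted; 8.36% and 11.2% of all genes), DESeq2 gave 2 and 4, limma-voom 3 and 5 (20.2% and 21.1%), and the filter at 10 CPM gave 2 and 9 (24.2% and 26.3%). The lower calls gained with the filter at 10 CPM were Brca2, Rad54l, Rad51d and Atrip. Correction for coding share gained Brca2 and Palb2 as lower. That for exon length gained Rad51d and Xrcc3 and lost Atr. The median of the 31 ratios, reported as -0.05, became -0.47 by library size alone and -0.13 with the filter at 10 CPM. It was -0.12 and -0.02 without RPF replicate 1 or 2, and -0.09 and -0.03 without total RNA replicate 1 or 2. For the other recombination genes (14 and 12) library size alone gave 6 and 26, glmTreat 5 and 6, and left-out libraries 8 to 17 and 6 to 13, with 11 and 7 without total RNA replicate 1 and 8 and 6 without total RNA replicate 2. For end joining genes (4 and 6) library size alone gave 0 higher (3 unadjusted), and glmTreat 0 (3 unadjusted) and 2. For replication genes (24 and 3) library size alone gave 9 and 11, glmTreat 7 and 0 (17 and 0 unadjusted), the exon length correction 6 lower, and left-out libraries 13 to 30 and 1 to 3, with 23 and 1 without total RNA replicate 1 and 13 and 1 without total RNA replicate 2. The cause of these moves was not tested.

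Ratios that changed sign were all of genes that had not passed, and none passed with the new sign. By library size alone they were Brca1 (-0.14), Rad51b (-0.30), Fancc (-0.35), Fancg (-0.23), Fancd2 (-0.20), Fanci (-0.28), Brip1 (-0.22), Blm (-0.24), Mre11a (-0.20), Nbn (-0.27) and Chek2 (-0.25). Correction for coding share turned Rad52 (0.16), Fanci (-0.082) and Chek2 (-0.0087), that for exon length Fanca (0.086), Nbn (-0.21) and Chek2 (-0.061), and the filter at 10 CPM Fancc (-0.0035). Over the left-out libraries the ratio ran from -0.24 to 0.16 for Rad52, from -0.38 to 0.55 for Rad51b, from -0.60 to 0.13 for Rad51c, from -0.099 to 0.025 for Fanca, from -0.052 to 0.21 for Fancc, from -0.12 to 0.41 for Fanci, from -0.043 to 0.46 for Brip1 and from -0.022 to 0.34 for Nbn. The sign turned without RPF replicate 1 for Rad52, Rad51b, Fanca, Fanci and Brip1, without RPF replicate 2 for Rad51c and Nbn, and without total RNA replicate 2 for Rad52, Fancc and Fanci.

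With the replicate block the counts were 7 and 11 for the 31 genes (30.8% and 31.6% of all genes tested), 24 and 20 for the other recombination genes and 7 lower for replication genes. The calls gained among the 31 were Brca1, Fancf, Fancl, Fancd2 and Mre11a as higher and Brca2, Palb2, Rad54l, Rad51d, Xrcc3 and Atrip as lower. Same-numbered libraries deviated together (r = 0.41 across genes), but the labels do not say that a number marks a shared lysate or culture. Among settings that kept all 4 libraries, none other than those named moved a count by more than 1.5 times. With 49 to 1772 counts per gene and 2 libraries a fraction, SEs of 0.13 to 0.34 limit which ratios can pass.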
